A study of Mus musculus with 8 samples.

Results

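Integrins are cell surface receptors made of an alpha and a beta subunit, and the laminins are trimeric proteins of the basement membrane that several of them bind. The integrin subunit genes and the laminin chain genes were chosen here by symbol, as the names beginning with Itga or Itgb that stand for a subunit, together with the laminin alpha, beta and gamma chain genes (Lama, Lamb and Lamc). This gave 38 of the 18540 genes in the table, of which 9 were grouped as leukocyte integrins, 5 as epithelial integrins, 13 as matrix integrins and 11 as laminins. The integrin binding proteins (Itgb1bp1, Itgb1bp2 and Itgb3bp) and Itgbl1, which is no subunit, were left out. A low-count filter kept 36 of the 38 genes for testing, all except Itgad and Itgb2l.

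The study sequenced RNA from wound skin of 4 control samples of mice, titled con, and 4 treated samples, titled shiyan. According to the study's methods, control wounds received PBS, and treated wounds received ZCZ, a ZnO2/CeO2@ZIF-8 nanocomposite. The treatment lasted 15 days. The study's text calls the sequenced treatment only ZCZ. The treated group is called Z1C2Z here, after the composite with the higher ratio of CeO2, because the sample names printed in the study's heat map carry that name with the numbers of the titles, and neither the labels nor the text state it. A name such as Z1C2Z-4 or control-1 joins the group and the sample number in the titles. Control samples carry the numbers 1, 2, 3 and 5 and Z1C2Z samples 1, 2, 4 and 5, and values per sample are given in that order throughout. The study worked with C57BL and diabetic db/db mice, the latter a model that lacks leptin receptor signalling, and made a pair of full-thickness wounds on each mouse. The C57BL mice were obtained at 6 and the db/db mice at 10 weeks of age. Which of these lines was sequenced, and so the age, is not given in the sources used here. The sex of the mice and the mouse behind each sample are not given there either, so p-values measure the spread between these samples, some of which may share a mouse.

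In skin, integrins carry traction and signals between cells and matrix. Basal keratinocytes are anchored to the basement membrane by the integrin of Itga6 and Itgb4 in hemidesmosomes, which holds on to a laminin that contains the Lama3 and Lamb3 chains. During repair, keratinocytes and fibroblasts move over a provisional matrix of fibronectin, tenascin and fibrin with receptors that pair Itgb1 or Itgav with other subunits, while blood leukocytes use the receptors of Itgb2, Itgb7 and Itga4 to stick to the vessel wall and leave it. Integrins of Itgav with Itgb6 or Itgb8 are also known for activating latent TGF-beta.

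The libraries held between 28856790 and 38974888 counts. The first principal component of log2 CPM (CPM being counts scaled to a common library size by TMM) carried 62.2% of the variance, and on it Z1C2Z-2 and Z1C2Z-4 lay farthest from the control samples and Z1C2Z-5 nearest to them. Skin markers were abundant in every library, with basal keratinocyte genes (Krt14, Krt5 and Trp63 among them) summing to between 4031 and 6431 CPM in control and between 4530 and 5630 CPM in Z1C2Z samples. Marker levels differed between the groups, on lists chosen with earlier results of these data known. All 7 hair follicle markers rose (summed level 384 to 2026 CPM in control, 2486 to 9047 CPM in Z1C2Z). Lower were 2 of 4 fibroblast markers (Dcn and Lum), 3 of 4 smooth muscle markers (Acta2, Cnn1 and Des) and 1 of 8 skeletal muscle markers (Acta1). Myh11, the other smooth muscle marker, did not pass the test described below. Of all genes tested, 4.28% passed it in the higher and 3.85% in the lower direction. The summed levels of fibroblast markers were 20388 to 25939 CPM in control and 15946 to 20588 CPM in Z1C2Z samples, those of smooth muscle markers 634 to 783 CPM and 388 to 450 CPM, and those of skeletal muscle markers 2784 to 5760 CPM and 2505 to 2769 CPM. In such bulk RNA, fewer cells of a type and less RNA per cell cannot be told apart, and the part of the tissue mixture in the results below was not tested.

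Of the 36 genes tested, 3 passed edgeR's quasi-likelihood test at a Benjamini-Hochberg adjusted p under 0.05 over 15147 genes. Itga5, the alpha subunit of the classical fibronectin receptor, and Itgb1, its beta subunit, fell in Z1C2Z wounds, and Itgb6, an epithelial beta subunit, rose. Over all genes tested, 4.28% were called higher and 3.85% lower, so that 1 higher and 2 lower of 36 genes is close to the share in the whole table. The estimates of the family leaned to lower values without most of them passing the test. The log2 fold change (Z1C2Z against control) was negative for 28 and positive for 8 of the 36 genes, with a median of -0.37, whereas over all genes it was negative for 7414 and positive for 7733, with a median of 0.01. An unadjusted p under 0.05 was reached by 16 of the 36 genes and by 4248 of the 15147. The values of both groups did not overlap for 2 genes that were higher (Itgb6 and Lamc3) and 5 that were lower (Itga5, Itgb1, Itgav, Itga2b and Lamb2) in Z1C2Z samples, and over all genes this was so for 8.45% in the higher and 8.82% in the lower direction.

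The number of calls rested on single libraries and on the tool. DESeq2 called 2 of the 36 genes higher and 12 lower, where it called 7.96% of all genes higher and 10.2% lower. Leaving out Z1C2Z-4, Z1C2Z-2, Z1C2Z-1 or control-5 left no gene of the whole table called by edgeR (smallest adjusted p 0.0876, 0.0888, 0.0661 and 0.0584), with 12, 13, 17 and 11 of the integrin and laminin genes at an unadjusted p under 0.05. Without control-2 none of them was called and 14 had an unadjusted p under 0.05, and without control-3 only Itga5 was called (3.04% of all genes were called lower in that fit). Without control-1, in contrast, 9 were called lower (Itga5, Itgb1, Itgb3, Itga1, Itga9, Itga11, Itgb5, Lama4 and Lamb1) and 3 higher (Itgb6, Itgb8 and Lamc3), beside 5.68% and 4.29% of all genes, and without Z1C2Z-5 there were 5 called lower (Itga5, Itgb1, Itga9, Itgav and Lama4), beside 5.62% of all genes. With both Z1C2Z-2 and Z1C2Z-4 left out, no gene of the table was called, and the log2 fold changes were -1.37 for Itga5 (adjusted p = 0.299), -0.41 for Itgb1 (adjusted p = 0.328) and 0.57 for Itgb6 (adjusted p = 0.299).

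**Figure D1:**
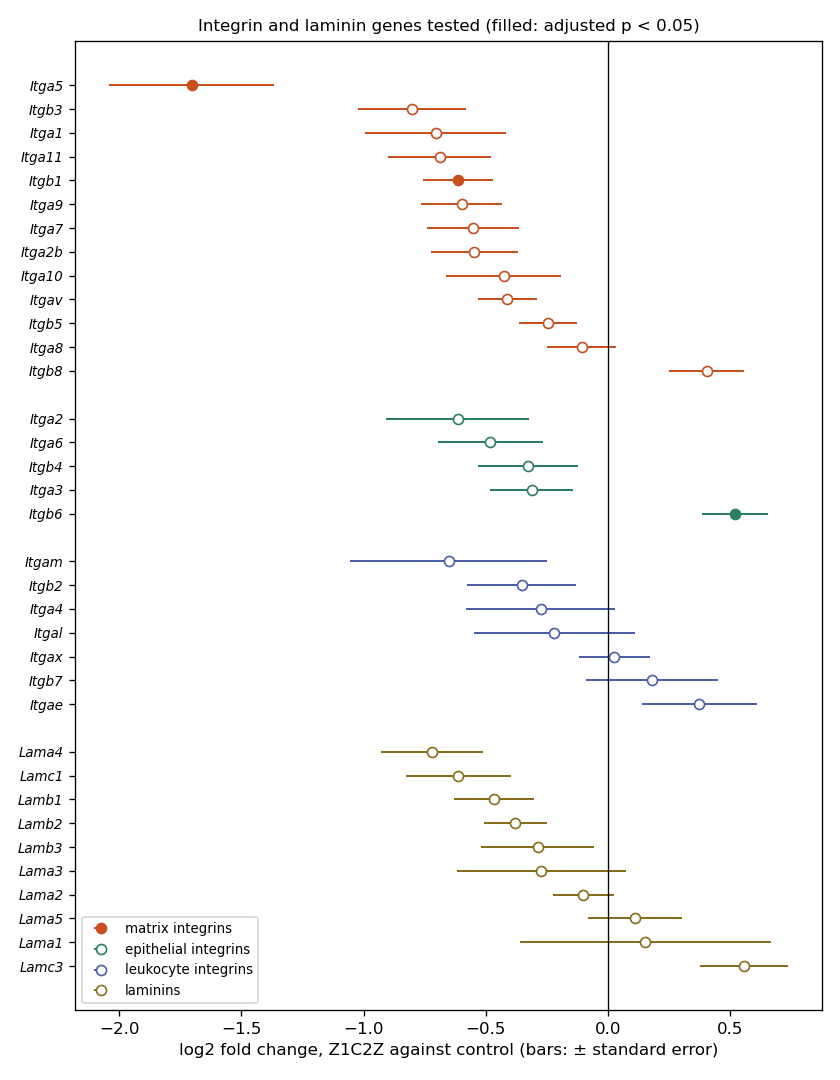
Log2 fold change of tested integrin and laminin genes, Z1C2Z against control (x axis), by group of genes (colour), with the standard error as the bar and a filled point where the adjusted p was under 0.05. Of the 3 filled points, Itga5 (-1.70) and Itgb1 (-0.61) lie left of 0 and Itgb6 (0.52) lies right of it, and most open points lie left of 0.

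The 250 bases before the RefSeq start of the 3 called genes are shown because these are the genes that passed the test. They were read from RefSeq on GRCm38.p6, 5′ to 3′ on the strand of the gene, and are printed with the GC box (GGGCGG or its complement CCGCCC) in capitals. The window of Itga5 is chr15:103366792-103367041 (minus strand), that of Itgb1 chr8:128685404-128685653 (plus strand) and that of Itgb6 chr2:60722604-60722853 (minus strand).
Itga5: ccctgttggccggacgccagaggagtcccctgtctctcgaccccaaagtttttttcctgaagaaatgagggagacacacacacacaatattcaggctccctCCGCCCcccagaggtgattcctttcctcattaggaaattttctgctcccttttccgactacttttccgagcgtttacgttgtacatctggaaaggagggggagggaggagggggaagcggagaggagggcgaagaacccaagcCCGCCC
Itgb1: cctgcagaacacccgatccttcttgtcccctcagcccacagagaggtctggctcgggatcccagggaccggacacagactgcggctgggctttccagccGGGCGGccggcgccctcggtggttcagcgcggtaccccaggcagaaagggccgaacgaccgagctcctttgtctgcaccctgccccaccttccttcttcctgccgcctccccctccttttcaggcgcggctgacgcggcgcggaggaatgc
Itgb6: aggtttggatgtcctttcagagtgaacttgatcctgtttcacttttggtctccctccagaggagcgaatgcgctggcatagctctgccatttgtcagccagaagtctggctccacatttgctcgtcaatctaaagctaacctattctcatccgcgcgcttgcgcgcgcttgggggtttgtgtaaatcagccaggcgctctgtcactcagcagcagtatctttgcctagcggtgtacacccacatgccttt
The Itga5 window held 2 GC boxes and the Itgb1 window 1, while the Itgb6 window held none. The windows of both fibronectin receptor subunits hold this motif, which 32.7% of the 32851 windows of that length in the RefSeq table also held. The window of Itgb1 was the richest in G and C (68%, with 21 CpG dinucleotides), against 55.6% and 11 in Itga5 and 52% and 11 in Itgb6, where the median window had 52.4% and 6. The letters TGANTCA of an AP-1 site, searched on both strands, were in none of the 3 windows and in 6.75% of all windows. RefSeq lists another start for Itgb6, whose window is not shown and held neither motif. Among the 27 windows of the 24 integrin and laminin genes that the table holds, 1 contained TGANTCA and 9 a GC box.

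Matrix integrins gave both called falls. In CPM, Itga5 (Entrez 16402) was measured at 141, 168, 148 and 350 in the control samples and at 67.9, 47.2, 44.4 and 88.1 in the Z1C2Z samples. Every treated sample lay below every control sample, and control-5 stood well above the other controls. The means were 202 ± 99.7 and 61.9 ± 20.4 CPM (SD, n = 4 each). The log2 fold change was -1.70 with a standard error of 0.34 (edgeR, adjusted p = 0.0303) or 3.26-fold lower. Itga5 was the only one of the 36 genes past a 2-fold change among those called. Without control-5 its log2 fold change was -1.29 (adjusted p = 0.0760), and without Z1C2Z-4, Z1C2Z-2, Z1C2Z-1 or control-2 its adjusted p was 0.0932, 0.0935, 0.0672 and 0.0588.

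Itgb1 (Entrez 16412), the beta subunit that most matrix receptors share, had 948, 1065, 1000 and 1208 CPM in the control samples and 756, 616, 560 and 828 CPM in the Z1C2Z samples. The groups did not overlap, with Z1C2Z-5 nearest to the control samples. The mean was 1055 ± 112 CPM in control and 690 ± 124 CPM in Z1C2Z samples (SD, n = 4 each), and the log2 fold change was -0.61 with a standard error of 0.14 (edgeR adjusted p = 0.0386). Leaving out 1 sample moved its adjusted p past 0.05 for Z1C2Z-4 (0.108), Z1C2Z-2 (0.122), Z1C2Z-1 (0.0698), control-5 (0.108), control-3 (0.0573) and control-2 (0.0781).

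The remaining 11 matrix integrins did not pass the test. Of all 13, the estimate was negative in 12, with a median log2 fold change of -0.55 against 0.01 over all genes. An unadjusted p under 0.05 was reached by 10 of them, and by 4248 of the 15147 genes tested. Itgb3, which pairs with Itgav in a receptor for vitronectin and fibrin and with Itga2b on platelets, had 40.4, 70.8, 62.8 and 90.5 CPM in control and 40.5, 33.4, 33.1 and 44.7 CPM in Z1C2Z samples (log2 fold change -0.80, adjusted p = 0.0568). Control-1 was as low as the treated samples, so the groups overlapped. Itgav, the alpha subunit of the vitronectin receptors and of the activators of TGF-beta, had 176, 188, 183 and 218 CPM in control and 159, 129, 123 and 165 CPM in Z1C2Z samples (log2 fold change -0.41, adjusted p = 0.0684). These values did not overlap, although the highest treated and the lowest control sample lay close together. Itga2b, the alpha subunit of the platelet fibrinogen receptor, was also without overlap, at 5.01 to 7.58 CPM in control and 3.82 to 4.64 CPM in Z1C2Z samples (log2 fold change -0.55, adjusted p = 0.0861). The platelet markers Pf4 and Ppbp had log2 fold changes of -0.99 (adjusted p = 0.0648) and -1.43 (adjusted p = 0.174), the platelet list summed to between 53.6 and 107 CPM in control and between 24.9 and 59.1 CPM in Z1C2Z samples, Gp9 was near 0 in every library, and the part of platelets in the value of Itga2b was not tested.

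The collagen receptor subunits Itga1, Itga10 and Itga11 had log2 fold changes of -0.71, -0.43 and -0.69 (adjusted p = 0.150, 0.271 and 0.0742). For Itga9, a receptor subunit for tenascin, the value was -0.60 (adjusted p = 0.0568), and for Itga7, a laminin receptor subunit of muscle, it was -0.55 (adjusted p = 0.0975). The muscle marker sums given above were lower as well, and their part in its value was not tested. Itga8, which binds nephronectin, and Itgb5, a partner of Itgav, had the smallest estimates, with -0.11 (adjusted p = 0.655) and -0.24 (adjusted p = 0.212). Itgb5 was nearly constant in the treated samples at 138 to 144 CPM, within the control range of 131 to 193 CPM. Itgb8 was the single matrix integrin with a positive estimate (0.41, adjusted p = 0.125), at 58.7, 51.9, 38.1 and 37.4 CPM in control and 58.0, 56.8, 65.7 and 65.9 CPM in Z1C2Z samples. Here control-1 reached the level of the treated group.

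**Figure D2:**
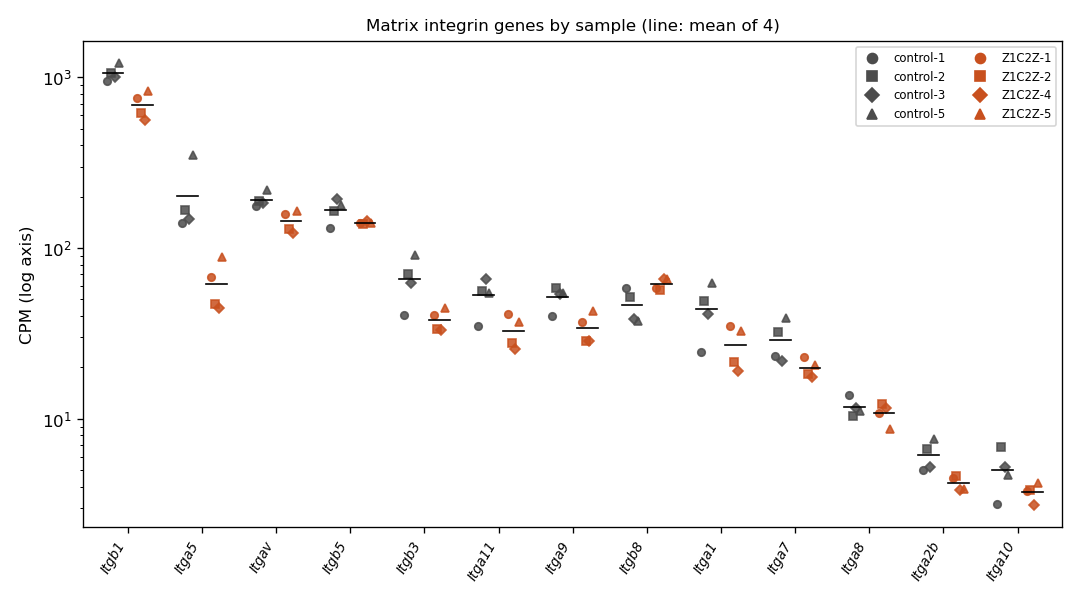
Level of each of the 13 matrix integrin genes in each sample (y axis, CPM on a log axis), with control samples in grey, Z1C2Z samples in orange and the mean of 4 as a line. For Itga5 the control samples sit between 141 and 350 CPM and the Z1C2Z samples between 44.4 and 88.1 CPM, and for Itgb8 the treated samples sit between 56.8 and 65.9 CPM beside 37.4 to 58.7 CPM in control.

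Ratios of counts within a sample, chosen after the values above were seen, are free of the library scaling and set the subunits against each other. Counts of Itga5 per count of Itgb1 were 0.148, 0.158, 0.148 and 0.290 in control and 0.0898, 0.0767, 0.0794 and 0.106 in Z1C2Z samples, so the alpha subunit was lower also relative to its partner in every treated sample. Itgav per Itgb1 went the other way, at 0.177 to 0.186 in control and 0.199 to 0.220 in Z1C2Z samples. Relative to Itgav, Itgb6 was at 0.0596 to 0.104 in control and 0.140 to 0.191 in Z1C2Z samples, and Itgb8 at 0.172 to 0.333 and 0.366 to 0.534. None of these 4 ratios overlapped between the groups. For Itgb6 per Itgav this follows from the levels, since Itgb6 was higher and Itgav lower in every treated sample than in any control sample. How often ratios of other gene pairs do not overlap was not computed. Against the fibroblast gene Dcn, itself a called lower gene, Itga5 was at 0.0418 to 0.0957 in control and 0.0179 to 0.0327 in Z1C2Z samples without overlap, whereas Itgb1 overlapped, at 0.282 to 0.330 and 0.226 to 0.307. Itgb3 and Itgb5 per Itgav overlapped between the groups.

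**Figure D3:**
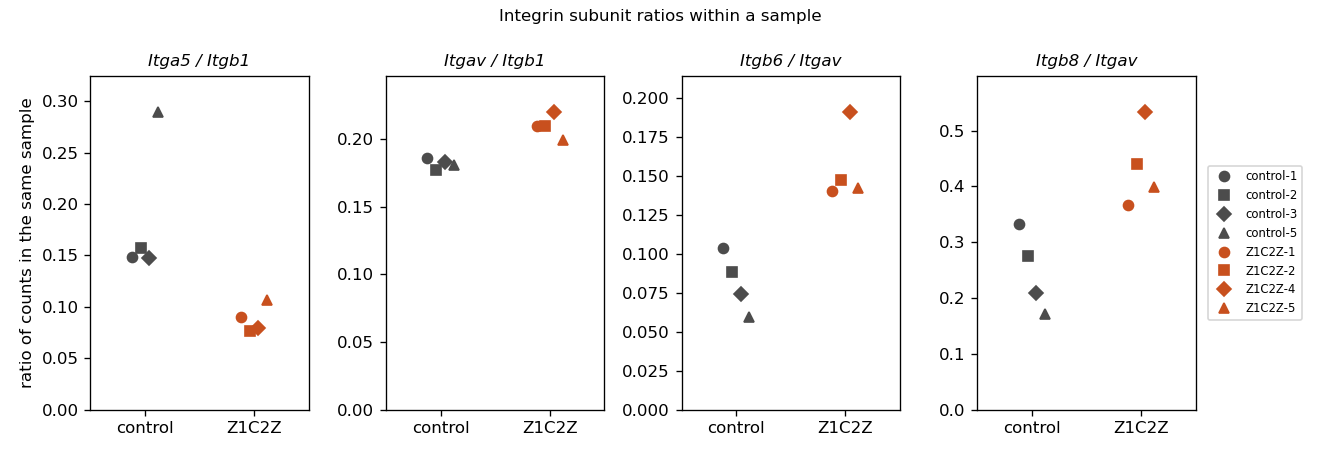
Ratio of the counts of 2 subunit genes in the same sample (y axis) for Itga5 to Itgb1, Itgav to Itgb1, Itgb6 to Itgav and Itgb8 to Itgav, with 1 point per sample. In each panel the control and Z1C2Z points do not overlap, with Z1C2Z lower in the first panel (0.0767 to 0.106 beside 0.148 to 0.290) and higher in the other 3.

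Among the epithelial integrins, Itgb6 rose and the other 4 did not pass the test. Itgb6 (Entrez 16420), which pairs with Itgav and appears in epithelia during repair, had 18.3, 16.6, 13.6 and 13.0 CPM in the control samples and 22.2, 19.0, 23.6 and 23.5 CPM in the Z1C2Z samples. Every treated sample was above every control sample, by the narrowest margin between Z1C2Z-2 and control-1. The mean was 15.4 ± 2.51 CPM in control and 22.1 ± 2.12 CPM in Z1C2Z samples (SD, n = 4 each), and the log2 fold change was 0.52 with a standard error of 0.14 (edgeR, adjusted p = 0.0483). The call lay at the threshold. It was lost with no low-count filter (adjusted p = 0.0507) and without any single sample except control-1, namely Z1C2Z-5 (0.0698), Z1C2Z-4 (0.132), Z1C2Z-2 (0.0923), Z1C2Z-1 (0.0875), control-5 (0.115), control-3 (0.0903) or control-2 (0.0792).

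Keratinocyte and follicle markers give the setting of that rise. Basal keratinocyte markers did not pass the test (0 of 4). The largest estimate among them was that of Krt15 (log2 fold change 0.86, edgeR adjusted p = 0.108), to which no ratio was taken. Per count of Trp63, a transcription factor of basal keratinocytes, Itgb6 was at 0.0538 to 0.0584 in control and 0.0643 to 0.0761 in Z1C2Z samples without overlap. Per count of Krt5 the groups overlapped, at 0.00684 to 0.0115 and 0.0105 to 0.0128. Per count of Msx2, a gene of the hair follicle that is 1 of the 7 follicle markers called higher, Itgb6 was at 0.735 to 1.75 in control and 0.251 to 0.740 in Z1C2Z samples, which just overlap. The part of keratinocytes and of the follicle in the rise of Itgb6 was not tested.

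Itga6, which forms the hemidesmosome integrin with Itgb4, had 278, 342, 212 and 339 CPM in control and 235, 148, 181 and 276 CPM in Z1C2Z samples (log2 fold change -0.48, adjusted p = 0.183). Only Z1C2Z-2 and Z1C2Z-4 lay below the control range. Itgb4 had a log2 fold change of -0.33 (adjusted p = 0.332). Counts of Itgb4 per count of Itga6 were at 0.224 to 0.293 in control and 0.280 to 0.299 in Z1C2Z samples, which overlap. For Itga2 and Itga3, which pair with Itgb1 as keratinocyte receptors for collagen and for laminin, the log2 fold changes were -0.61 (adjusted p = 0.205) and -0.31 (adjusted p = 0.263).

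None of the leukocyte integrins was called, and none of the 7 tested reached an unadjusted p under 0.05 in edgeR. DESeq2 called none of them either. Their estimates were positive in 3 and negative in 4, with a median of -0.22. Itgam, the alpha subunit of the complement receptor of neutrophils and macrophages, had 137, 124, 116 and 173 CPM in control and 120, 44.3, 39.6 and 147 CPM in Z1C2Z samples (log2 fold change -0.65 with a standard error of 0.40, adjusted p = 0.323). Z1C2Z-2 and Z1C2Z-4 were far below all control samples, and Z1C2Z-1 and Z1C2Z-5 were within their range. Its partner Itgb2, the beta subunit of all leukocyte adhesion receptors of this type, also had its lowest values in Z1C2Z-2 and Z1C2Z-4, with 65.2, 68.8, 83.8 and 88.2 CPM in control and 75.8, 48.3, 38.9 and 76.7 CPM in Z1C2Z samples (log2 fold change -0.35, adjusted p = 0.329). With both Z1C2Z-2 and Z1C2Z-4 left out, the log2 fold changes of Itgam and Itgb2 were -0.046 (adjusted p = 0.933) and -0.0059 (adjusted p = 0.990).

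The log2 fold changes of the other leukocyte alpha subunits were -0.22 for Itgal (adjusted p = 0.697), a receptor subunit of lymphocytes for Icam1, -0.27 for Itga4 (adjusted p = 0.587), which binds Vcam1 and fibronectin, and 0.03 for Itgax (adjusted p = 0.925), a marker of dendritic cells and macrophages. Itgae and Itgb7, which form the receptor of intraepithelial T cells for E-cadherin, had 0.38 (adjusted p = 0.330) and 0.18 (adjusted p = 0.695). Itgae lay at 4.41 to 8.07 CPM in control and 7.51 to 12.2 CPM in Z1C2Z samples, and Itgb7 at 5.68 to 13.3 and 8.04 to 11.7 CPM. Itgad and Itgb2l had 0 to 5 and 0 to 4 counts per library, too few for a test.

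None of the leukocyte markers read beside these genes was called. The pan-leukocyte list summed to between 455 and 537 CPM in control and between 259 and 465 CPM in Z1C2Z samples (0 of 4 called). Neutrophil markers had a negative estimate in 7 of 7 tested (0 called; 578 to 1509 and 170 to 663 CPM), with Ly6g near 0 in every library, and macrophage markers also in 7 of 7 (0 called; 1305 to 1684 and 787 to 1400 CPM). The 5 T cell markers in the table summed to 23.0 to 40.8 CPM in control and 23.6 to 37.9 CPM in Z1C2Z samples, and the dendritic and Langerhans cell markers to 23.2 to 38.4 and 26.1 to 34.9 CPM (0 called in either list). Estimates were positive in 4 and negative in 1 of the T cell markers, and positive in 3 and negative in 2 of the dendritic and Langerhans cell markers. In the latter list 2 of 5 were higher without overlap, beside 8.45% of all genes, both with a control mean under 1 CPM. Per count of Ptprc, the gene of the pan-leukocyte surface protein CD45, Itgb2 was at 0.416 to 0.667 in control and 0.472 to 0.591 in Z1C2Z samples, and Itgam at 0.575 to 1.31 and 0.433 to 1. Itgam per Ptprc lay below every control sample in Z1C2Z-2 (0.433) and Z1C2Z-4 (0.489). Itgax per Ptprc was at 0.0797 to 0.0938 in control and 0.0927 to 0.155 in Z1C2Z samples, highest in Z1C2Z-2 and Z1C2Z-4. Itgb7 per Ptprc was at 0.0405 to 0.0688 in control and 0.0578 to 0.131 in Z1C2Z samples, also highest in Z1C2Z-2 and Z1C2Z-4. All of these ranges of sums and ratios overlapped.

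**Figure D4:**
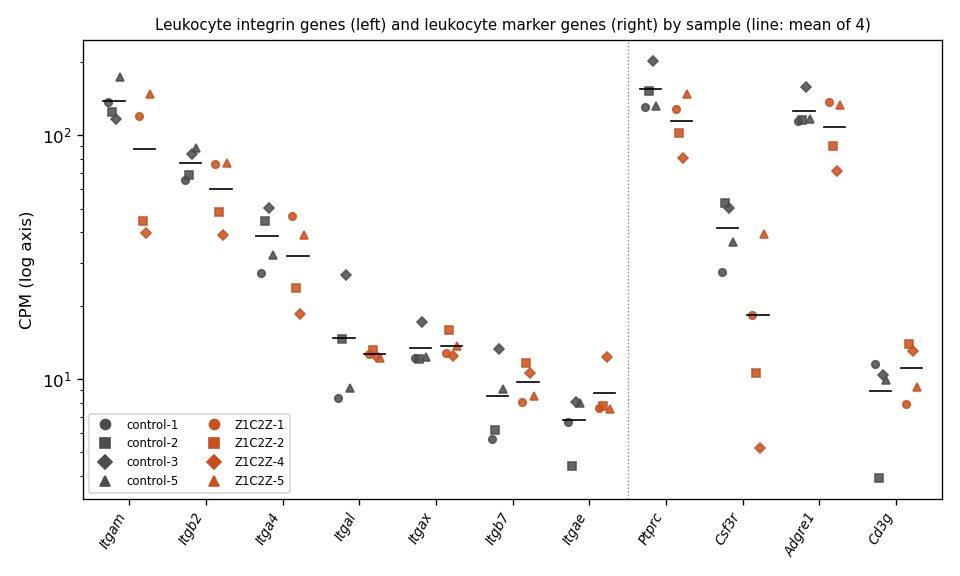
Level of the 7 tested leukocyte integrin genes (left of the dotted line) and of the leukocyte markers Ptprc, Csf3r, Adgre1 and Cd3g (right) in each sample, in CPM on a log axis, with the mean of 4 as a line. For Itgam, Z1C2Z-2 (44.3 CPM) and Z1C2Z-4 (39.6 CPM) lie below all control samples (116 to 173 CPM), while Z1C2Z-1 and Z1C2Z-5 lie among them.

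No laminin chain gene passed the test. Of the 11, 5 had an unadjusted p under 0.05, where 4248 of all 15147 genes did. DESeq2 called 1 higher (Lamc3) and 4 lower (Lama4, Lamb1, Lamb2 and Lamc1), beside 7.96% and 10.2% of all genes. The estimates were negative in 8 and positive in 3, with a median of -0.29. Lama4, the alpha chain of vascular and mesenchymal basement membranes, had 193, 292, 275 and 311 CPM in control and 195, 128, 124 and 205 CPM in Z1C2Z samples (log2 fold change -0.72 with a standard error of 0.21, adjusted p = 0.0654). Control-1 was as low as Z1C2Z-1, and the groups overlapped. Lamb1 and Lamc1, the beta and gamma chains of most laminins outside the epidermis, had log2 fold changes of -0.47 (adjusted p = 0.106) and -0.61 (adjusted p = 0.104), and Lamb2, a beta chain of vessels and nerve, had -0.38 (adjusted p = 0.0961) without overlap, at 74.3 to 99.7 CPM in control and 53.5 to 72.4 CPM in Z1C2Z samples. Endothelial markers were called in 0 of 4 and summed to between 256 and 702 CPM in control and between 210 and 414 CPM in Z1C2Z samples, and per count of the endothelial gene Pecam1 Lama4 overlapped, at 1.00 to 1.61 and 1.13 to 1.42.

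Lama3 and Lamb3, chains of the hemidesmosome laminin, were split within the treated group. Lama3 had 83.1, 97.8, 54.3 and 95.8 CPM in control and 99.0, 35.0, 43.9 and 96.1 CPM in Z1C2Z samples (log2 fold change -0.27, adjusted p = 0.641), Z1C2Z-1 and Z1C2Z-5 standing at the top of all samples together with control-2 and control-5. Lamb3 had 48.8, 45.6, 37.1 and 60.4 CPM in control and 49.4, 23.99, 36.0 and 48.0 CPM in Z1C2Z samples (log2 fold change -0.29, adjusted p = 0.447). In both chains Z1C2Z-2 and Z1C2Z-4 were the lowest of the 8 samples. With both left out, the log2 fold changes of Lama3 and Lamb3 were 0.24 and 0.020 (adjusted p = 0.682 and 0.975). The wound-edge keratinocyte markers were not called (0 of 4), and their sum was 2319 and 2580 CPM in Z1C2Z-2 and Z1C2Z-4, 4209 and 4207 CPM in Z1C2Z-1 and Z1C2Z-5, and 2822 to 6388 CPM in control. Krt17, the fourth marker of that list beside Krt6a, Krt6b and Krt16, did not share this order, with 880 and 1144 CPM in Z1C2Z-2 and Z1C2Z-4 and 685 and 817 CPM in Z1C2Z-1 and Z1C2Z-5. Per count of Krt6a, Lama3 was at 0.0441 to 0.0752 in control and 0.0690 to 0.0777 in Z1C2Z samples. No ratio of Lamb3 to Krt6a was taken. Per count of Krt5, Lama3 was at 0.0338 to 0.0523 in control and Lamb3 at 0.0231 to 0.0318. In Z1C2Z-2 and Z1C2Z-4, Lama3 was at 0.0209 and 0.0195 and Lamb3 at 0.0143 and 0.0160, below all control samples. In Z1C2Z-1 and Z1C2Z-5, Lama3 was at 0.0571 and 0.0513 and Lamb3 at 0.0285 and 0.0256. The part of keratinocytes in this split was not tested.

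Lamc3 was the laminin chain with the largest positive estimate. It was measured at 10.5, 5.94, 7.68 and 8.70 CPM in control and 11.6, 11.3, 14.3 and 11.17 CPM in Z1C2Z samples, without overlap (log2 fold change 0.56 with a standard error of 0.18, adjusted p = 0.0835). Lama2, the chain of muscle and nerve basement membranes, Lama5, a chain of epidermal and follicular basement membranes, and Lama1, a chain of early embryonic basement membranes, had log2 fold changes of -0.10, 0.11 and 0.15 (adjusted p = 0.635, 0.742 and 0.869). Lama1 had only 7 to 42 counts per library, and no difference was detectable at that depth.

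Scaled by exon length, the levels of the family spanned a wide range. In CPM per kb of exon, Itgb1 was highest of the 38 genes with 259 ± 27.5 in control and 169 ± 30.3 in Z1C2Z samples (SD, n = 4 each). Lamc1 (55.8 ± 11.8 in control and 36.5 ± 9.67 in Z1C2Z samples) and Itgb5 (46.9 ± 7.50 and 39.6 ± 0.743) came next, in this order in control and in the reverse order in Z1C2Z samples, each time within the SD of Lamc1. Itga5 came next in control, at 40.9 ± 20.2, within the spread of Lamc1 and Itgb5, while in Z1C2Z samples it was at 12.6 ± 4.13, below Lamb1 (24.1 ± 2.73) and Itga6 (23.2 ± 6.30) by more than their SDs. The beta partners of Itgav on this scale were ordered Itgb5, Itgb3, Itgb8 and Itgb6 in control (46.9, 11.20, 4.21 and 2.16), and in Z1C2Z samples the gap between Itgb3 (6.43 ± 0.962) and Itgb8 (5.57 ± 0.440) was within their SDs. In the hemidesmosome laminin, Lama3 (7.70 ± 1.87 in control) and Lamb3 (7.26 ± 1.46) did not differ beyond their spread. Among the alpha chains, Lama4 was highest with 22.2 ± 4.34 in control and 13.5 ± 3.56 in Z1C2Z samples. These lengths are those of all annotated exons of a gene, so a level per kb is approximate where a tissue uses a short isoform.

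**Figure D5:**
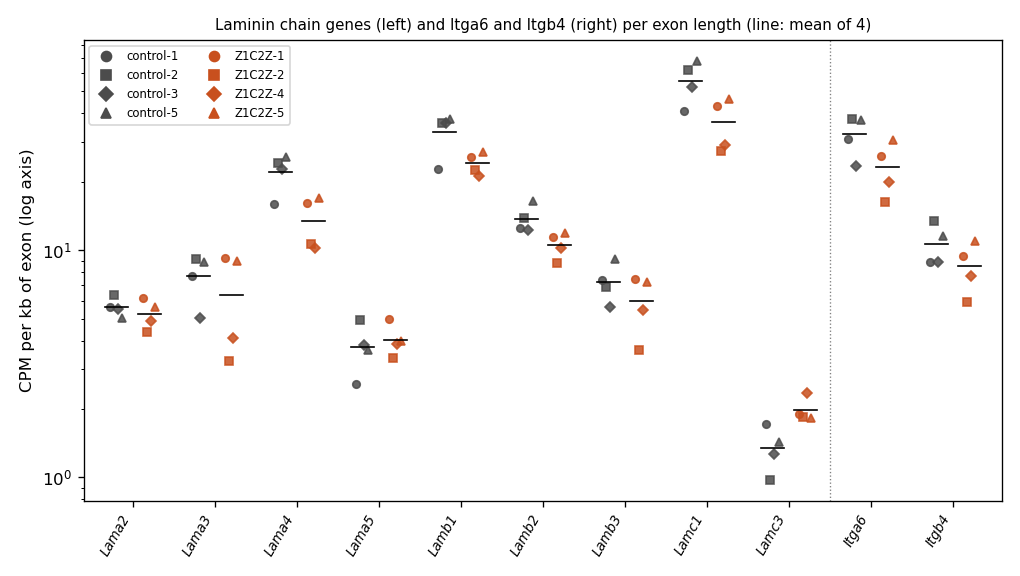
Level per exon length (y axis, CPM per kb of exon on a log axis) of 9 laminin chain genes (Lama1, near 0, is not among them), and of Itga6 and Itgb4 right of the dotted line, in each sample, with the mean of 4 as a line. Lamc1 lies highest (55.8 in control and 36.5 in Z1C2Z samples) and Lamc3 lowest, and in Lama3 and Lamb3 the squares and diamonds of Z1C2Z-2 and Z1C2Z-4 lie below the other samples.

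A division of the treated group ran through part of the family. Z1C2Z-4 and Z1C2Z-2 formed the lowest pair of the 4 treated samples in 24 of the 36 tested genes, where this was so for 31.7% of all 15147 genes. In 16 of the 36, Z1C2Z-2 and Z1C2Z-4 lay below every control sample while Z1C2Z-1 and Z1C2Z-5 lay within the control range, against 7.44% of all genes. They included 3 of 7 tested leukocyte integrins (Itgam, Itga4 and Itgb2) and 4 of 5 epithelial integrins (Itga2, Itga3, Itga6 and Itgb4). Of the matrix integrins, 3 of 13 were among them (Itga1, Itga11 and Itgb3). Itga5 and Itgb1 were not, as all 4 of their treated samples lay below the control samples. The laminin genes Lama2, Lama4, Lamb1, Lamb3 and Lamc1 were also included.  Z1C2Z-2 and Z1C2Z-4 had the highest sums of hair follicle markers, 9047 and 8224 CPM, against 4751 CPM in Z1C2Z-1 and 2486 CPM in Z1C2Z-5. The shares are a description of these libraries, and the part of the tissue mixture in them was not tested.

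Ligands, adaptors and basement membrane partners of these receptors were read from lists of 54 genes, of which 52 were tested. Of these, 1 was called higher and 7 lower, beside 4.28% and 3.85% of all genes, and the estimate was negative in 40 and positive in 12 (median -0.36). DESeq2 called 5 higher and 17 lower, beside 7.96% and 10.2% of all genes, and edgeR called none without control-5 or without any of Z1C2Z-1, Z1C2Z-2 and Z1C2Z-4. Without control-2 only Icam1 of the 8 was still called (adjusted p = 0.0424), beside 0.641% of all genes called lower.

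Ligands of matrix integrins held 4 of the 7 lower genes (4 of 11 tested). Tnc, the gene of tenascin C, a matrix protein of repairing tissue bound by Itga9 and Itgav receptors, had 1268, 2498, 2036 and 2925 CPM in control and 535, 296, 275 and 843 CPM in Z1C2Z samples (log2 fold change -2.16 with a standard error of 0.40, edgeR adjusted p = 0.0300). Thbs1, which encodes thrombospondin, had 976, 539, 570 and 1837 CPM in control and 262, 131, 145 and 302 CPM in Z1C2Z samples, and the log2 fold change was -2.22 with a standard error of 0.44 (edgeR adjusted p = 0.0303). Neither gene overlapped between the groups. Ltbp1, which holds latent TGF-beta in the matrix, also fell (log2 fold change -0.61, adjusted p = 0.0364). Fn1, the gene of fibronectin and so of the ligand of the Itga5 and Itgb1 receptor, was not called, with 1661, 2617, 2128 and 2455 CPM in control and 2030, 814, 973 and 1808 CPM in Z1C2Z samples (log2 fold change -0.66, adjusted p = 0.185). Tgfb1, the gene of a latent cytokine that Itgb6 and Itgb8 receptors activate, did not overlap and missed the threshold (log2 fold change -0.68, adjusted p = 0.0557). Fn1 and Tgfb1 were singled out after their values were seen.

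Among 16 genes listed as cytoplasmic adaptors of integrins, 15 had a negative estimate and 2 were called lower. Vcl, the gene of vinculin, fell from 241 ± 30.9 to 148 ± 26.2 CPM (SD, n = 4 each; log2 fold change -0.70, edgeR adjusted p = 0.0315), and Fermt2, the gene of the kindlin of mesenchymal cells, fell from 155 ± 30.6 to 90.3 ± 16.9 CPM (SD, n = 4 each; log2 fold change -0.78, edgeR adjusted p = 0.0337). Fermt1, the kindlin of keratinocytes, was listed with the hemidesmosome and anchoring genes and so is not among these 16. It was the 1 partner called higher, with 20.8, 21.3, 16.4 and 12.4 CPM in control and 28.7, 25.9, 29.4 and 29.1 CPM in Z1C2Z samples (log2 fold change 0.67, adjusted p = 0.0426). This call was also lost without control-3 (0.0769) and Z1C2Z-5 (0.0538). The other 5 hemidesmosome and anchoring genes, Col17a1, Dst, Plec, Cd151 and Col7a1, were not called.

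Of the ligands of leukocyte integrins, 1 of 6 tested fell. Icam1, which Itgal and Itgam receptors bind, had 41.0, 36.4, 45.4 and 54.6 CPM in control and 22.8, 23.6, 23.3 and 29.2 CPM in Z1C2Z samples, without overlap (log2 fold change -0.84, standard error 0.14, edgeR adjusted p = 0.0299). The 4 treated samples were alike, unlike those of Itgam and Itgb2. None of 13 basement membrane partners was called, with 7 positive and 6 negative estimates and a median of 0.10. Their log2 fold changes ran from -0.78 to 0.77. An unadjusted p under 0.05 in edgeR was reached by 6 of the 13, and by 4248 of the 15147 genes tested. Of the 13, 2 were higher and 0 lower without overlap, beside 8.45% and 8.82% of all genes.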

How the data were processed

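RNA-seq counts of 4 control and 4 Z1C2Z wound skin samples were used. Samples were grouped by their titles. The file deposited by the authors held unnormalized read counts for 18540 genes. Per the labels, ribosomal RNA was depleted and the second cDNA strand was made with dUTP. The labels name Trizol and the methods the RNA Easy Fast Tissue/Cell kit. The aligner, counting program, genome build and strand setting are not given in the sources used here, so reads shared with overlapping or near-identical genes cannot be reassigned. Columns of per-sample values left unused numbered 0.

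The analysis used edgeR 4.0.16 (with limma 3.58.1, in R 4.3.3). filterByExpr kept 15147 genes, which were scaled by TMM and tested with the quasi-likelihood test without covariates. P-values were adjusted by Benjamini-Hochberg over all genes tested and called under 0.05. The study's own threshold joined a fold change or an unadjusted p. CPM were counts divided by the TMM-scaled library size, and log2 CPM used a prior count of 2. Standard errors came from the quasi-likelihood F statistic. Levels per kb used the exon lengths of GENCODE vM21, in which 38 of 38 symbols matched. Promoter windows came from RefSeq (GRCm38.p6).

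Alternatives were DESeq2 1.42.0, RLE size factors, a minimum of 10 counts per library or no filter at all, a replicate block by sample number, each sample left out, and omission of Z1C2Z-2 with Z1C2Z-4 or of control-1 with control-5. On simulated counts of 15147 genes for this comparison, 74 of 100 genes set to a log2 change of 1 and 92 of 98 set to 2 were recovered, with 5 unchanged genes called. These counts were drawn independently for each gene and sample, without the differences between libraries that many genes share here. Recovery and false calls in the real comparison may therefore differ from these numbers. Totals of 28856790 to 38974888 counts leave counting error large for genes near 10 counts.

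The gene groups, partner lists and cell type markers were chosen with earlier results of these data known. The text names the integrin and laminin genes, of which 1 is counted in its group but not reported here, up to 3 called partners per list and direction by smallest p, and up to 3 markers per list by mean CPM. Markers of mast cells, Schwann cells and adipocytes (0 of 4 called in each list) were also read.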

Additional observations from a re-analysis of the deposited data

Results flagged for a closer look

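The level of 1 sample stood apart from the other 3 of its group in 4 of the 72 groups examined (36 genes in control and in Z1C2Z samples), by a gap to the nearest sample, as a share of the whole range on the log2 CPM scale, above Dixon's critical value. Chance flags about 1 in 20 groups, so this number is near what chance gives. Itgax was high in control-3, with a gap of 0.950 of the range (17.1 CPM beside 12.1 to 12.3 CPM in the other control samples). Itgae was high in Z1C2Z-4, with a gap of 0.931 (12.2 CPM beside 7.51 to 7.77 CPM); without that sample its log2 fold change of 0.38 was 0.17. Lamc3 was also high in Z1C2Z-4, with 0.851 (14.3 CPM beside 11.17 to 11.59 CPM). Lamb1 was low in control-1, with 0.903 (226 CPM beside 358 to 377 CPM), and without control-1 its log2 fold change of -0.62 passed the edgeR test (adjusted p = 0.0296).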

How the results depend on the processing

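Of the 36 genes tested, 27 kept the sign of their log2 fold change in all alternatives that could be run for them, among them the 3 called genes. Itga5 lay between -1.93 and -1.29, Itgb1 between -0.71 and -0.41 and Itgb6 between 0.44 and 0.61. RLE size factors and a minimum of 10 counts left the counts of calls as they were. DESeq2 gave 2 genes higher and 12 lower in all (1 and 2 in edgeR), with 8 matrix integrins lower, 1 laminin higher and 4 lower, and 5 partners higher and 17 lower (1 and 7 in edgeR). No low-count filter left 0 genes and 0 epithelial integrins higher. With the sample number as a replicate block, 0 genes, 0 epithelial integrins and 0 partners were higher, 1 gene was lower (the matrix integrin Itga5, -1.63, edgeR adjusted p = 0.0110) and 3 partners were lower; Itgal (0.28), Itga4 (0.049) and Lama1 (-0.46) changed sign. The numbers were not taken to pair the samples, since centred log2 CPM of equally numbered samples correlated at -0.10 for number 1, -0.06 for number 2 and 0.32 for number 5. Without Z1C2Z-2 and Z1C2Z-4, no gene of the table was called (1980 at an unadjusted p under 0.05, 3 of them integrin or laminin genes; smallest adjusted p 0.280), so each count was 0, and Itgax (-0.028), Itga4 (0.15), Itgb7 (-0.053), Lama2 (0.064), Lama3 (0.24) and Lamb3 (0.02) changed sign. Without control-1 and control-5, 0 integrin or laminin genes and partners higher 0, lower 1, were called, and Itgax (-0.10), Itgb7 (-0.0096) and Lama5 (-0.12) changed sign. Leaving out 1 sample gave 0 to 3 genes higher and 0 to 9 lower, 0 to 1 epithelial integrins higher, 0 to 1 matrix integrins higher and 0 to 7 lower, 0 to 1 laminins higher and 0 to 2 lower, and 0 to 3 partners higher and 0 to 16 lower. In those fits the log2 fold changes of Itgal (-0.41 to 0.24), Itgax (-0.053 to 0.17), Lama1 (-0.22 to 0.46) and Lama5 (-0.037 to 0.27) spanned 0. Where a count moved, the cause was not tested. Lama1 was not tested with a minimum of 10 counts. Depth limits Itgad, Itgb2l and Lama1.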

Other observations

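The genes left out of the family by the rule were also measured. Itgb1bp2, the gene of melusin, a muscle protein that binds the tail of the Itgb1 protein, had 20.0 to 27.3 CPM in control and 12.9 to 17.3 CPM in Z1C2Z samples and fell (log2 fold change -0.63 with a standard error of 0.14, edgeR adjusted p = 0.0352). Itgbl1 (0.30, adjusted p = 0.126), Itgb1bp1 (-0.12, adjusted p = 0.477) and Itgb3bp (0.20, adjusted p = 0.625) were not called.

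Mast cell markers summed to 150 to 230 CPM in control and 147 to 187 CPM in Z1C2Z samples, Schwann cell markers to 43.9 to 84.7 and 64.6 to 92.6 CPM, and adipocyte markers to 103 to 162 and 77.8 to 123 CPM, with 0 of 4 called in each list.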
